A study of Mus musculus with 8 samples.

Results

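The step from estrus to metestrus was described here in the mouse uterus, with 2 metestrus libraries set against 2 estrus libraries and every gene with enough counts tested. These 4 libraries belong to a series of 8, with 2 libraries for each stage of the estrous cycle, in the order proestrus, estrus, metestrus and diestrus. All came from female mice of the outbred ICR stock, 6 to 8 weeks old, with no treatment or allele named, and the uterus was taken once the cells of a vaginal smear had given the stage. Polyadenylated RNA was sequenced from stranded libraries, so the values are averages over glands, luminal epithelium, stroma, muscle, vessels and immune cells, and fewer cells of a type and less RNA per cell cannot be told apart. The labels do not say whether the libraries of a stage came from separate mice. The p-values therefore reflect how far all 8 libraries of the series differ within their stages, which may be technical.

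In the cycling rodent uterus, estrogen from growing follicles drives the swelling, secretion and inflammatory cell entry of proestrus and estrus. After ovulation the ruptured follicles become corpora lutea, which secrete progesterone, and the luminal epithelium sheds cells by apoptosis and renews itself. Progesterone acts through its receptor in epithelium, stroma and muscle, and one of its best-known routes in the mouse uterus runs from Indian hedgehog in the epithelium to the GLI factors of the stroma.

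Levels are given in CPM, which is the count of a gene per 1000000 counts of the library. The library size was first corrected for differences in composition with TMM factors. They compare libraries, not genes, since a longer transcript gathers more counts. Changes are log2 fold changes of metestrus over estrus with their standard error (SE), from the edgeR quasi-likelihood fit to all 8 libraries, so a positive value means higher in metestrus. A gene is said to have risen or fallen where its p-value, adjusted over all tested genes by the Benjamini-Hochberg method, was under 0.05. In every gene so called, both metestrus libraries lay on one side of both estrus libraries. Where the call of a named gene ended when 1 library was left out, those libraries are named with the adjusted p in parentheses, and every other call of a named gene held without each of the 8 libraries in turn. Where a count of 3 or more genes moved by over 1.5 times, it is also given without 1 library, always in the order metestrus library 1, metestrus library 2, estrus library 1 and estrus library 2. A count of 1 or 2 genes is given so only where it reached 3 or more, since any such count rests on single genes, and the others stayed between 0 and 2.

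Of 52308 genes in the table, 18114 were tested, and 6563 of them (36.2%) changed between estrus and metestrus. In metestrus 3032 genes (16.7% of those tested) were higher and 3531 (19.5%) were lower. These shares are to be set beside every count of listed genes below. Rises were smaller than falls: the median change was 1.95-fold among genes that rose and 2.58-fold among genes that fell, and 47 genes rose but 248 fell by more than 32-fold. Both counts rest on all 4 libraries: 1234, 1014, 988 and 1256 genes were higher and 1314, 1114, 1451 and 2003 lower without 1 library. In the fit to all 8 libraries the step was the largest of the cycle by this count. There 2727 genes (15.1%) were called for estrus against proestrus, 92 (0.508%) for diestrus against metestrus and 4050 (22.4%) for proestrus against diestrus. The other steps were not refitted without 1 library, so this order was not tested in that way. Both libraries of metestrus lay above both of estrus in 36.3% of tested genes and below both in 40.2%, whether or not the test was passed. The plot of all tested genes shows the calls on both sides of the diagonal.

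**Figure D1:**
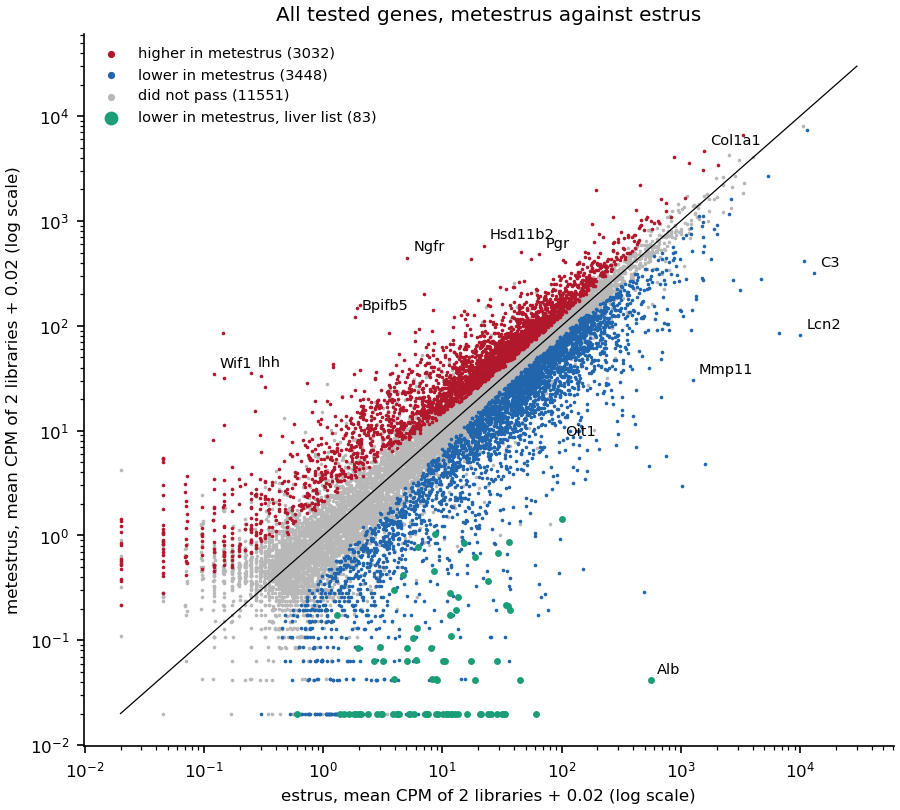
Each point is 1 of 18114 tested genes, with its mean level in metestrus (y axis) against its mean level in estrus (x axis), in CPM plus 0.02 on log scales, and the line marks equal levels. Red points were higher and blue points lower in metestrus, grey points did not pass, and the 83 green points are genes of the liver list.

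The deposited counts summed to between 20102821 and 21645295 in the 4 libraries of the step and to between 17863546 and 21896786 over the series. The first principal component of the 8 libraries held 48.3% of the variance. On the third, which held 11.4%, diestrus libraries 1 and 2 lay far apart, at 71.5 and -28.1. The 2 metestrus libraries differed over 2-fold in 818 tested genes, and the 2 estrus libraries in 1274, after 0.1 CPM was added. Transcripts made by hepatocytes were present in estrus and nearly absent in metestrus, and they head the list of falls. Alb, which encodes serum albumin, had 0 and 0.0428 CPM in metestrus, against 649.7 and 477 CPM in estrus, where metestrus held 1 count in all. All of the 12 largest falls that the naming rule gave were such genes, among them Alb, Apoa1, Serpina3k, Gc, Bhmt, Cyp4a14, Fabp1, Cyp4a10, Fgb, Fga and Ces1c. Apoa1, the main protein of high-density lipoprotein, had no count in metestrus, against 66.6 and 56.3 CPM in estrus, and was at least 939-fold lower when metestrus is set to 3 counts over its 2 libraries. Its call ended without metestrus library 1 (0.12) or 2 (0.127) or estrus library 1 (0.117) or 2 (0.103), and that of Alb without metestrus library 1 (0.0724) or 2 (0.0767) and in limma-voom (0.111). Cyp4a14 lost its call without metestrus library 1 (0.0671) or 2 (0.0743) or estrus library 1 (0.0662), and each of the other 8 named did without any one of the 4 libraries of the step, with adjusted p between 0.0526 and 0.134.

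A list of 93 hepatocyte genes was drawn up after these values were seen, so its count supports nothing. Of its 89 tested members 83 fell and none rose (10, 12, 21 and 36 without 1 library), and 47 members had no count in either metestrus library. The list summed to 10.1 and 18.6 CPM in metestrus, against 2072 and 1575 CPM in estrus, with 529.7 and 54.4 CPM in proestrus and 33.1 and 14.8 CPM in diestrus. It makes up 74 of the 248 falls over 32-fold, and 3448 falls lie outside it. Several genes described below, among them complement factors, iron carriers and the arginase Arg1, are also made by liver, and the part of liver transcripts in their values was not tested. The 23 complement genes listed summed to 10346 and 5302.6 CPM in proestrus and 19352 and 17263 CPM in estrus. In metestrus they had 1856 and 1777.6 CPM and in diestrus 5331 and 1681.5 CPM. C3 itself had 2510.0 and 179 CPM in diestrus libraries 1 and 2. Of 10 kidney genes listed 2 were tested, of which 1, Kap, fell. The other tested gene lay higher in both metestrus libraries and did not pass. The 10 summed to 0.982 and 0.727 CPM in metestrus, against 7.60 and 24.2 CPM in estrus. The kidney gene Kap, also chosen after its value was seen, had 0.0446 and 0 CPM in metestrus, against 7.25 and 23.9 CPM in estrus, a call that ended without metestrus library 2 (0.0554).

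Markers of the tissue itself were present throughout. The 23 smooth muscle genes summed to 21228 and 17181 CPM in metestrus, against 21462 and 19354 CPM in estrus, and 1 of them fell (0, 0, 0 and 0 without 1 library, 4 without diestrus library 1 or 2): Itga8, an integrin subunit (log2 fold change -0.92 ± 0.23), whose call ended without metestrus library 1 (0.0546) or 2 (0.147) or estrus library 1 (0.088) or 2 (0.103). The 17 stromal fibroblast genes summed to 5973 and 5673 CPM in metestrus, against 7830.1 and 6132 CPM in estrus, and 6 rose (3, 3, 3 and 2 without 1 library) and 4 fell (1, 0, 0 and 3 without 1 library). The 24 endothelial and vascular genes summed to 1142 and 1169 CPM in metestrus, against 1103 and 1060.0 CPM in estrus. Of these 2 rose (1, 1, 1 and 1 without 1 library, 3 without proestrus library 1 or 2, 5 without diestrus library 1 or 2) and 1 fell (1, 0, 0 and 0 without 1 library, 0 without proestrus library 1 or 2, 3 without diestrus library 1 or 2). The 37 listed genes of simple epithelium, of which 36 were tested, had 2621 and 2492 CPM in metestrus, against 8026 and 6823 CPM in estrus. Their sum was lower in both metestrus libraries. The 24 listed macrophage genes, of which 23 were tested, had 1072 and 1007 CPM in metestrus, against 3089 and 3279.9 CPM in estrus. Where epithelial or macrophage genes are described below, these sums moved with them, and their part in single genes was not tested. The stromal fibroblast sum was also lower in both metestrus libraries, and its part in single genes was not tested either. The bars of marker sums set the epithelial, macrophage and stromal lists beside the muscle and vessel lists.

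**Figure D2:**
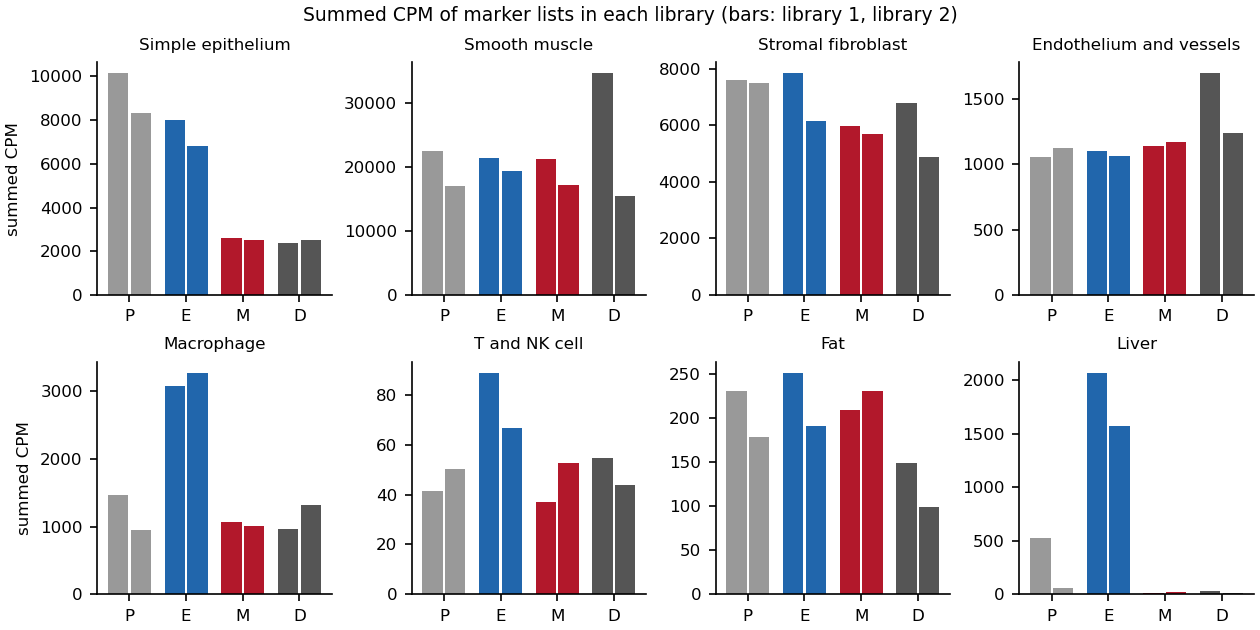
Summed CPM (y axis) of 8 marker lists in each of the 8 libraries, ordered proestrus (P), estrus (E), metestrus (M) and diestrus (D), with library 1 and 2 of a stage side by side. The epithelial, stromal fibroblast, macrophage, T and NK cell and liver lists were lower in both metestrus libraries than in both estrus libraries. Smooth muscle reached 21228 and 17181 CPM in metestrus and 21462 and 19354 CPM in estrus.

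Transcripts of the progesterone receptor were several times higher in metestrus. Pgr (ENSMUSG00000031870, chromosome 9, 8899833 to 8968611, plus strand, GRCm38) had 480.5 and 478 CPM in metestrus, against 69 and 60.7 CPM in estrus, and the libraries of each stage lay close together (log2 fold change 2.88 ± 0.15, adjusted p = 0.000739). Esr1, estrogen receptor alpha, reached 447 and 464 CPM in metestrus, against 335 and 301 CPM in estrus, a rise of 0.52 ± 0.17 with an adjusted p of 0.0489, and its call ended without metestrus library 1 (0.119) or 2 (0.145) or estrus library 1 (0.104) or 2 (0.20) or proestrus library 1 (0.0662) or 2 (0.0609). Pgrmc1, a heme-binding membrane protein linked to progesterone responses, fell (126 and 128 CPM in metestrus, against 204 and 229.8 CPM in estrus; log2 fold change -0.77 ± 0.11, adjusted p = 0.00379). The glucocorticoid receptor Nr3c1 had 62.4 and 61.1 CPM in metestrus, against 53 and 53.5 CPM in estrus (adjusted p = 0.257). Nr3c2, Gper1, Esr2 and Pgrmc2 did not pass either, with adjusted p of 0.953, 0.827, 0.437 and 0.317.

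Several chaperones that hold steroid receptors ready for hormone rose. Of 16 coregulators and chaperones tested, 6 rose (5, 6, 6 and 6 without 1 library, 10 without diestrus library 1 or 2) and 3 fell (2, 1, 1 and 2 without 1 library). Fkbp4, the co-chaperone FKBP52 that the mouse uterus needs for progesterone action, had 786 and 732 CPM in metestrus, against 149 and 259 CPM in estrus (log2 fold change 1.89 ± 0.29, adjusted p = 0.00503). Hsp90aa1 had 1134 and 1055 CPM in metestrus, against 224 and 319 CPM in estrus (log2 fold change 2.01 ± 0.18, adjusted p = 0.0016). Ptges3, the p23 co-chaperone, had 243 and 260.2 CPM in metestrus, against 103 and 125 CPM in estrus (log2 fold change 1.14 ± 0.13, adjusted p = 0.00225). Greb1, a cofactor of estrogen receptor alpha and itself an estrogen target, reached 104 and 101 CPM in metestrus, against 17.6 and 14.8 CPM in estrus (log2 fold change 2.66 ± 0.45, adjusted p = 0.00663). Cited2, a p300-binding regulator, fell, with 16 and 15.8 CPM in metestrus, against 69.1 and 57.6 CPM in estrus (log2 fold change -1.99 ± 0.27, adjusted p = 0.00372). Of 12 genes in the stress list 5 rose, namely Hsp90aa1, Hspd1, Hspe1, Hsph1 and Hspa8. The call of Hspa8 ended without metestrus library 1 (0.0979) or estrus library 1 (0.105) or 2 (0.0676), and that of Hsp90ab1, another cytosolic HSP90, without metestrus library 1 (0.0506).

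Of 11 steroid-metabolising enzymes tested 1 rose and 2 fell (1, 0, 1 and 1 without 1 library, 5 without diestrus library 1 or 2). Hsd11b2, the dehydrogenase that inactivates glucocorticoids, had 632 and 529 CPM in metestrus, against 26.1 and 18.3 CPM in estrus (log2 fold change 4.71 ± 0.29, adjusted p = 0.000821), and its proestrus and diestrus levels were 576 and 788 CPM and 771 and 579 CPM, so estrus was the low stage. Hsd17b2, which oxidises estradiol to estrone, had 0.357 and 0.214 CPM in metestrus, against 51.6 and 21.9 CPM in estrus (log2 fold change -6.98 ± 1.07, adjusted p = 0.0050), a call that ended without metestrus library 2 (0.0507). Akr1c18, the enzyme that degrades progesterone, had 0.312 and 0.128 CPM in metestrus, against 31.4 and 21.9 CPM in estrus (log2 fold change -6.89 ± 1.91, adjusted p = 0.0313), a call that ended without metestrus library 1 (0.139) or 2 (0.169) or estrus library 1 (0.099) or 2 (0.078) and in limma-voom (0.0554). The other 8 tested members of this list did not pass. One of them, the dehydrogenase Hsd17b11, had 125 and 114 CPM in metestrus, against 259.5 and 240.4 CPM in estrus (log2 fold change -1.07 ± 0.40, adjusted p = 0.076). It passed in DESeq2 (0.019), with no filter on low counts (0.0306) and with the replicate number as a block (0.0422). It also passed in the fit to only the 4 libraries of the step (0.00124) and without diestrus library 1 (0.00407) or 2 (0.00418).

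Of the 4 members of the FAM3 family of secreted proteins, 3 fell in metestrus. Fam3d, listed as Oit1 in the annotation used (ENSMUSG00000021749, chromosome 14, 8348937 to 8378754, minus strand), had 7.59 and 7.91 CPM in metestrus, against 95.5 and 95.9 CPM in estrus (log2 fold change -3.63 ± 0.53, adjusted p = 0.00444). Fam3b had 0.491 and 0.513 CPM in metestrus, against 15.1 and 8.36 CPM in estrus (log2 fold change -4.53 ± 0.50, adjusted p = 0.00225). Fam3c had 64.5 and 58.9 CPM in metestrus, against 79.6 and 85.4 CPM in estrus, a smaller fall (log2 fold change -0.42 ± 0.13, adjusted p = 0.048) that was lost without metestrus library 1 (0.145) or 2 (0.286) or estrus library 1 (0.148) or 2 (0.196) or proestrus library 1 (0.0898) or 2 (0.101), and in DESeq2 (0.0745), with DESeq2 size factors (0.057) and with no filter on low counts (0.0926). Fam3a had 34.9 and 30.2 CPM in metestrus, against 44.1 and 44.5 CPM in estrus and did not pass (adjusted p = 0.18), but passed when the fit held only the 4 libraries of the step (0.0318).

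Genes known as estrogen targets in the uterus went both ways. Of 33 tested, 8 rose and 13 fell (6, 6, 7 and 7 without 1 library). Among 19 secreted and surface proteins of the epithelium 1 rose (1, 1, 1 and 1 without 1 library, 3 without diestrus library 1 or 2) and 11 fell (4, 4, 5 and 5 without 1 library, 7 without proestrus library 1 or 2). Among 14 broad targets 7 rose and 2 fell (2, 2, 2 and 2 without 1 library, 4 without diestrus library 1 or 2), a contrast between roles that was not tested. Igf1, the stromal growth factor that carries estrogen's mitogenic signal to the epithelium, had 467 and 549 CPM in metestrus, against 44.3 and 47.5 CPM in estrus (log2 fold change 3.47 ± 0.19, adjusted p = 0.000806). Its intracellular adaptor Irs1 rose (77.3 and 82.7 CPM in metestrus, against 21.5 and 23.5 CPM in estrus; log2 fold change 1.83 ± 0.12, adjusted p = 0.000863). Irs2 fell (6.7 and 7.23 CPM in metestrus, against 53.8 and 45.8 CPM in estrus; log2 fold change -2.84 ± 0.48, adjusted p = 0.00686; lost without metestrus library 1 (0.0538) or 2 (0.0554)). Ramp3, which converts the calcitonin receptor-like receptor into an adrenomedullin receptor, was the secreted or surface member that rose (237 and 235 CPM in metestrus, against 34.4 and 26.2 CPM in estrus; log2 fold change 2.96 ± 0.41, adjusted p = 0.00377). Lcn2, the iron-scavenging lipocalin, had 99.3 and 63 CPM in metestrus, against 11199.9 and 8858 CPM in estrus (log2 fold change -6.95 ± 0.53, adjusted p = 0.0011). Clca1, a secreted regulator of chloride channels, had 64.1 and 107 CPM in metestrus, against 6149 and 7118 CPM in estrus (log2 fold change -6.28 ± 0.72, adjusted p = 0.00257). C3 and Ltf, complement component 3 and lactoferrin, had the largest losses in CPM of all genes that changed: C3 had 324 and 307 CPM in metestrus, against 13710.2 and 12469.8 CPM in estrus, and Ltf had 439 and 391 CPM in metestrus, against 11483 and 10139.6 CPM in estrus. Both passed the test (adjusted p = 0.0161 and 0.0185), but that of C3 ended without metestrus library 1 (0.0967) or 2 (0.105) or estrus library 1 (0.0608) or 2 (0.0513), and that of Ltf without metestrus library 1 (0.106) or 2 (0.118) or estrus library 1 (0.0695) or 2 (0.0573).

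**Figure D3:**
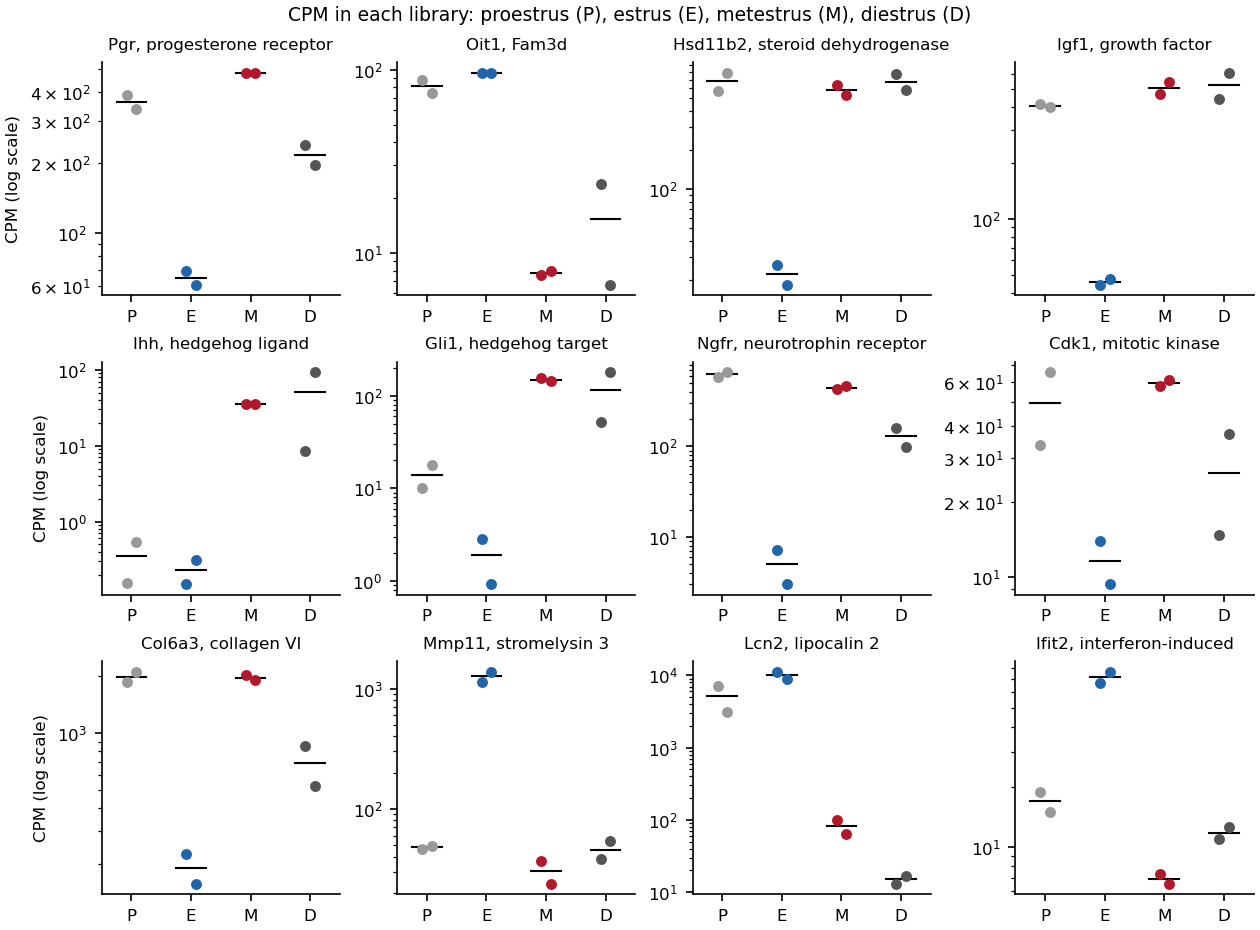
CPM on a log scale (y axis) of 12 genes in each library, ordered proestrus (P), estrus (E), metestrus (M) and diestrus (D). Points are libraries and bars the mean of 2. Pgr, Hsd11b2, Igf1, Ngfr and Col6a3 were lower in both estrus libraries than in both libraries of every other stage, whereas Mmp11 and Ifit2 were higher in both estrus libraries than in any other.

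Hedgehog signalling genes rose together in metestrus. Of 13 tested, 9 rose and none fell, with a median log2 fold change of 0.99 beside -0.05 over all tested genes. The ligand Ihh (ENSMUSG00000006538, chromosome 1, 74945315 to 74951672, minus strand) was barely detected in estrus and had 35.7 and 35.4 CPM in metestrus, against 0.15 and 0.31 CPM in estrus (log2 fold change 7.24 ± 1.37, adjusted p = 0.00951). Its call was lost without estrus library 1 (0.0746) or 2 (0.0592) and in limma-voom (0.115). Gli1, a transcription factor that is itself a readout of the pathway, had 156 and 143 CPM in metestrus, against 2.85 and 0.929 CPM in estrus (log2 fold change 6.29 ± 0.80, adjusted p = 0.00317). Hhip, a decoy that binds hedgehog ligands, had 27 and 39.6 CPM in metestrus, against 0.15 and 0.413 CPM in estrus (log2 fold change 6.86 ± 1.33, adjusted p = 0.0101), a call that ended without estrus library 1 (0.0776) or 2 (0.058). The transcription factors Gli2 (79.8 and 68.3 CPM in metestrus, against 38.8 and 35.9 CPM in estrus) and Gli3 (24.6 and 24.5 CPM in metestrus, against 14.1 and 15.1 CPM in estrus) rose less, by 0.99 ± 0.14 and 0.75 ± 0.12 on the log2 scale. Without 1 library the number of members that rose was lower (7, 6, 4 and 4 without 1 library).

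Genes listed for the progesterone and glucocorticoid response moved less evenly. Of 35 tested members of the progesterone and glucocorticoid list 10 rose (7, 7, 5 and 4 without 1 library) and 2 fell (0, 0, 0 and 0 without 1 library, 4 without diestrus library 1 or 2). The risers include 6 genes of the hedgehog list, and 7 of the 10 belong to the 13 stromal members (5, 4, 4 and 3 without 1 library). Il13ra2, a decoy receptor for interleukin 13, rose to 1.38 and 2.14 CPM in metestrus, against 0.40 and 0.155 CPM in estrus (log2 fold change 2.64 ± 0.45, adjusted p = 0.00701). Hoxa11, a homeobox gene that the stroma needs for implantation, had 76.4 and 90.8 CPM in metestrus, against 48 and 43.4 CPM in estrus (log2 fold change 0.87 ± 0.17, adjusted p = 0.00966), a call that ended without metestrus library 2 (0.0619) or estrus library 2 (0.0617). Fkbp5, a standard target of glucocorticoid and progesterone receptors, had 25 and 27.2 CPM in metestrus, against 14.4 and 18.1 CPM in estrus and did not pass (adjusted p = 0.0978), but passed in the fit to only the 4 libraries of the step (0.0142). Wnt4, a stromal progesterone target, fell (42.9 and 38.3 CPM in metestrus, against 91.1 and 98.5 CPM in estrus; log2 fold change -1.22 ± 0.23, adjusted p = 0.00967), as did Klf9, a progesterone receptor partner (104 and 104 CPM in metestrus, against 239 and 224 CPM in estrus; log2 fold change -1.15 ± 0.24, adjusted p = 0.0137). Wnt4 was lost without metestrus library 1 (0.0576) or 2 (0.0814) or estrus library 1 (0.0532) or 2 (0.0529), and Klf9 without metestrus library 1 (0.0798) or 2 (0.088) or estrus library 1 (0.0751) or 2 (0.0544).

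The largest rise of the step among the genes the rule names was that of a Wnt antagonist. Wif1, a secreted protein that binds Wnt ligands (ENSMUSG00000020218, chromosome 10, 121033960 to 121100650, plus strand), had 42 and 27.3 CPM in metestrus, against 0.15 and 0.0516 CPM in estrus, and its estrus libraries held 3 counts and 1 count (log2 fold change 8.33 ± 1.59, adjusted p = 0.00976; lost without estrus library 1 (0.069) or 2 (0.0678)). Of 44 Wnt pathway genes 12 rose (7, 7, 5 and 5 without 1 library, 19 without diestrus library 1 or 2) and 7 fell (2, 1, 1 and 4 without 1 library). Axin2, a negative regulator induced by the canonical pathway, rose (104 and 108 CPM in metestrus, against 58.5 and 54.2 CPM in estrus; log2 fold change 0.91 ± 0.12, adjusted p = 0.00331). Znrf3, which removes Wnt receptors, rose too (29.6 and 32 CPM in metestrus, against 18.2 and 18.1 CPM in estrus; log2 fold change 0.76 ± 0.13, adjusted p = 0.00637). Slc6a2, the noradrenaline transporter, had 27.8 and 36.1 CPM in metestrus, against 0.050 and 0.206 CPM in estrus (log2 fold change 7.91 ± 0.73, adjusted p = 0.00162). Ngfr, the low-affinity neurotrophin receptor, had 429 and 465 CPM in metestrus, against 7.05 and 2.99 CPM in estrus (log2 fold change 6.47 ± 0.48, adjusted p = 0.000977). Ptpn5, a neuronal tyrosine phosphatase, had 190.1 and 128 CPM in metestrus, against 2.05 and 1.96 CPM in estrus (log2 fold change 6.31 ± 0.46, adjusted p = 0.000975). Nppc, the C-type natriuretic peptide, had 4.37 and 2.57 CPM in metestrus, against 0.30 and 0.0516 CPM in estrus (log2 fold change 4.24 ± 0.63, adjusted p = 0.00453). Npr1, the receptor for the atrial and brain peptides, had 35.4 and 37.9 CPM in metestrus, against 109 and 93.8 CPM in estrus (log2 fold change -1.47 ± 0.15, adjusted p = 0.00192). The remaining large rises were Cpne4, Fam163b, Has2, Bpifb5 and the immunoglobulin segment Igkv4-78, whose metestrus libraries held 2.32 and 13.8 CPM and whose call was lost without metestrus library 1 (0.0566) or 2 (0.16) or estrus library 1 (0.11) or 2 (0.157) or proestrus library 1 (0.0548) or 2 (0.0537), in DESeq2 (0.0701) and in limma-voom (0.10). Its log2 fold change of 6.23 became 10.42 without estrus library 1. Cpne4 was lost without estrus library 1 (0.0661), and Fam163b without metestrus library 2 (0.0567) or estrus library 1 (0.086) or 2 (0.062).

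A minority of the ligands of the TGF beta family and their inhibitors changed. In this list 25.7% of tested members rose and 5.71% fell, beside 16.7% and 19.5% of all tested genes. Of 35 genes of the TGF beta, BMP and activin list 9 rose (3, 3, 3 and 2 without 1 library) and 2 fell (1, 1, 1 and 2 without 1 library, 3 without diestrus library 1 or 2). Fstl3, a secreted inhibitor of activin, had 15.4 and 15.4 CPM in metestrus, against 2.1 and 2.06 CPM in estrus (log2 fold change 2.88 ± 0.19, adjusted p = 0.000863). Gdf6, a BMP-type ligand, had 8.44 and 13.6 CPM in metestrus, against 1.85 and 1.24 CPM in estrus (log2 fold change 2.83 ± 0.34, adjusted p = 0.00278). Bmp7 had 93.3 and 100.2 CPM in metestrus, against 15.7 and 8.78 CPM in estrus, a call (log2 fold change 2.98 ± 0.72, adjusted p = 0.0205) that ended without metestrus library 1 (0.0695) or 2 (0.080) or estrus library 1 (0.0796) or 2 (0.114). Nbl1, a BMP antagonist of the DAN family, fell (359.8 and 270.1 CPM in metestrus, against 734 and 922 CPM in estrus; log2 fold change -1.39 ± 0.19, adjusted p = 0.00374). Of the EGF receptors, Erbb3 (30.1 and 27.6 CPM in metestrus, against 129 and 95.1 CPM in estrus) and Erbb2 (61.8 and 49.3 CPM in metestrus, against 134 and 112 CPM in estrus), both epithelial, fell (log2 fold changes -1.96 ± 0.26 and -1.15 ± 0.19), as did the epithelial marker sum. Erbb2 was lost without metestrus library 2 (0.0515). Of 19 retinoic acid genes 3 rose (15.8%) and 5 fell (26.3%), beside 16.7% and 19.5% of all tested genes. Stra6, the receptor for retinol uptake, had 95.2 and 75.7 CPM in metestrus, against 3.75 and 3.36 CPM in estrus (log2 fold change 4.58 ± 0.71, adjusted p = 0.00505). Aldh1a2, which makes retinoic acid, had 246 and 251 CPM in metestrus, against 86.3 and 87.5 CPM in estrus (log2 fold change 1.51 ± 0.14, adjusted p = 0.00164). Cyp26b1, which degrades it, had 0.982 and 1.28 CPM in metestrus, against 13.6 and 38.2 CPM in estrus (log2 fold change -4.51 ± 0.70, adjusted p = 0.00527).

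Genes for copying DNA were higher in metestrus. Of 48 tested replication genes 40 rose and none fell, with a median log2 fold change of 1.87. By role, the genes that rose were 9 of 10 that load the helicase (3, 0, 0 and 1 without 1 library) and 6 of 8 that fire origins (3, 3, 3 and 3 without 1 library). They also were 17 of 19 that encode polymerases, clamp and ligase (9, 4, 5 and 4 without 1 library) and 4 of 5 that supply nucleotides (2, 1, 1 and 1 without 1 library). Among the genes of chromatin assembly and licensing control 4 of 6 rose, and fewer did without any 1 library of the step. Pold2, a subunit of the polymerase that extends the lagging strand, had 61.7 and 62.8 CPM in metestrus, against 15.2 and 15.7 CPM in estrus (log2 fold change 2.01 ± 0.16, adjusted p = 0.00121). Pole, the catalytic subunit of the leading-strand polymerase, had 22.2 and 30.4 CPM in metestrus, against 4.65 and 3.2 CPM in estrus (log2 fold change 2.74 ± 0.42, adjusted p = 0.00479). Cdc45, part of the active helicase, had 19.8 and 24.8 CPM in metestrus, against 3.55 and 3.41 CPM in estrus (log2 fold change 2.68 ± 0.42, adjusted p = 0.00522). The count of risers rests on all 4 libraries of the step (19, 9, 9 and 10 without 1 library).

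Genes of mitosis also rose. Of 40 tested, 31 rose and none fell, with a median log2 fold change of 2.56. Mad2l1, a spindle checkpoint protein, had 55.4 and 71.4 CPM in metestrus, against 10.9 and 8.78 CPM in estrus (log2 fold change 2.69 ± 0.46, adjusted p = 0.00723), lost without estrus library 2 (0.0522). Cdk1, the mitotic kinase, had 57.7 and 61 CPM in metestrus, against 13.9 and 9.4 CPM in estrus (log2 fold change 2.35 ± 0.50, adjusted p = 0.014), and its call ended without metestrus library 1 (0.0571) or 2 (0.0655) or estrus library 1 (0.063) or 2 (0.0843). Nearly every call of this list needed both libraries of both stages (2, 1, 1 and 0 without 1 library). In proestrus Cdk1 had 33.6 and 65.6 CPM and in diestrus 14.8 and 37.1 CPM, so the libraries of those stages lay further apart than those of metestrus. Of 8 G1 cyclins and kinases 6 rose (4, 3, 3 and 4 without 1 library) and 1 fell. The risers include Ccnd2 (97.7 and 104 CPM in metestrus, against 24.7 and 19.7 CPM in estrus; log2 fold change 2.18 ± 0.18, adjusted p = 0.00131) and Ccne2 (15.2 and 14.3 CPM in metestrus, against 2.15 and 1.86 CPM in estrus; log2 fold change 2.88 ± 0.43, adjusted p = 0.00459). None of 6 inhibitors of cyclin-dependent kinases rose and 2 fell, Cdkn1b and Cdkn2b. Cdkn1b, which encodes p27, had 63.5 and 59.2 CPM in metestrus, against 132 and 110.5 CPM in estrus (log2 fold change -0.98 ± 0.24, adjusted p = 0.0212). Cdkn2b, which encodes p15, had 2.01 and 1.15 CPM in metestrus, against 16.1 and 10.5 CPM in estrus (log2 fold change -3.07 ± 0.61, adjusted p = 0.0108). Cdkn1b was lost without metestrus library 1 (0.0915) or 2 (0.122) or estrus library 1 (0.115) or 2 (0.0574), and Cdkn2b without metestrus library 1 (0.0513) or 2 (0.0819) or estrus library 1 (0.0609). Myc, the growth-promoting transcription factor, had 119.6 and 129.7 CPM in metestrus, against 52.5 and 48.4 CPM in estrus (log2 fold change 1.30 ± 0.17, adjusted p = 0.00342).

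The promoters of these cell cycle genes are shown because they moved together and because short motifs of cell cycle control are known for them. For 8 lists a motif known for such genes was searched, and all 8 results are given, here and beside the interferon genes. The 250 bases before the start of transcription were taken from RefSeq (build GRCm38.p6) and searched on both strands for TTTNGCGC, the core bound by E2F factors, and for TTTGAA, the cell cycle homology region of mitotic genes. Of the 40 replication genes that rose, 33 had a promoter in the RefSeq table, and 6 of their 39 promoters (15.4%) held TTTNGCGC, beside 1.13% of all 32851 promoters in the table. Of the 31 mitosis genes that rose, 27 had a promoter, and 11 of their 29 promoters (37.9%) held TTTGAA, beside 16.0% of all promoters. A match is a string of letters and not a measured binding site. The windows of Mcm6 (a helicase subunit, chr1:128359706-128359955, minus strand), Uhrf1 (a chromatin factor of replicating DNA, chr17:56304063-56304312, plus strand) and Cdk1 (chr10:69352913-69353162, minus strand) read as follows, 5′ to 3′ on the strand of the gene, with TTTNGCGC in capitals in Mcm6 and Uhrf1 and TTTGAA in capitals in Cdk1, each on either strand and with overlapping matches run together:
Mcm6: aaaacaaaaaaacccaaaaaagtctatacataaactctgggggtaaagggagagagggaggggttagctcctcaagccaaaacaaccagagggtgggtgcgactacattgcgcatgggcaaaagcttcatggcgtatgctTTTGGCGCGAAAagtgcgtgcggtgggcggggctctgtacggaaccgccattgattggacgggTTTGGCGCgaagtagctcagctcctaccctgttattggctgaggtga
Uhrf1: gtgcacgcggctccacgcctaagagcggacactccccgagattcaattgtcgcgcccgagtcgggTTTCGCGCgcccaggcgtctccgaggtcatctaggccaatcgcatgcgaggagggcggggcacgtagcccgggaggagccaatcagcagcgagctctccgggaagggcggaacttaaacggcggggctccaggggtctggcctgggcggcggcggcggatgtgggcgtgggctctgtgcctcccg
Cdk1: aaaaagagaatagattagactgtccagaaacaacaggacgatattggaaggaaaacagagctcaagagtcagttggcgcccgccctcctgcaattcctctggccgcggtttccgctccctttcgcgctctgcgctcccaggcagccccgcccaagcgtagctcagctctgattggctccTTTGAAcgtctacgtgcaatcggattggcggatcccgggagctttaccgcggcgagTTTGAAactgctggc
Mcm6 itself had 126 and 173 CPM in metestrus, against 41 and 33.8 CPM in estrus (log2 fold change 2.00 ± 0.36, adjusted p = 0.00826) and Uhrf1 had 115 and 127 CPM in metestrus, against 11.5 and 13.6 CPM in estrus (log2 fold change 3.27 ± 0.58, adjusted p = 0.00756); both are named for their promoters, after their values were seen. Their calls ended without metestrus library 2 (0.0536) or estrus library 1 (0.0504) or 2 (0.0568) for Mcm6 and without estrus library 1 (0.0621) for Uhrf1.

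Nucleolar factors that build ribosomes rose, whereas the ribosomal proteins did not rise as a group. Of 35 ribosome biogenesis genes 33 rose and none fell, with a median log2 fold change of 1.19. Nolc1, a nucleolar phosphoprotein, had 149.9 and 169 CPM in metestrus, against 49.6 and 59.3 CPM in estrus (log2 fold change 1.55 ± 0.19, adjusted p = 0.00282). Polr1a, the largest subunit of RNA polymerase I, had 94.4 and 103 CPM in metestrus, against 40.02 and 42.5 CPM in estrus (log2 fold change 1.25 ± 0.13, adjusted p = 0.0019). Without 1 library the count was smaller (31, 19, 19 and 27 without 1 library). Of 51 cytosolic ribosomal protein genes 2 rose and 5 fell (0, 0, 0 and 0 without 1 library, 0 without proestrus library 1 or 2, 10 without diestrus library 1 or 2), with medians of -0.13 for the large and -0.22 for the small subunit. Srm, which makes the polyamine spermidine, had 174 and 186 CPM in metestrus, against 22.7 and 27.9 CPM in estrus (log2 fold change 2.83 ± 0.20, adjusted p = 0.000882). Sat1, which breaks polyamines down, had 55 and 59.3 CPM in metestrus, against 512 and 387 CPM in estrus (log2 fold change -2.97 ± 0.37, adjusted p = 0.00302). Arg1, an arginase of macrophages, epithelium and liver, had 5.22 and 3.85 CPM in metestrus, against 688 and 399 CPM in estrus (log2 fold change -6.90 ± 0.81, adjusted p = 0.00261), and its proestrus libraries held 1087 and 273 CPM. The liver list summed to 529.7 and 54.4 CPM in those same libraries, and its part in the Arg1 values was not tested.

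Sterol synthesis and protein folding in the endoplasmic reticulum also rose. Of 20 enzymes from mevalonate to sterol 11 rose (7, 4, 11 and 4 without 1 library) and none fell. Acat2 rose (31.3 and 34.9 CPM in metestrus, against 15.1 and 12.4 CPM in estrus; log2 fold change 1.27 ± 0.16, adjusted p = 0.00295), as did Lss (23 and 28 CPM in metestrus, against 11.7 and 10.015 CPM in estrus; log2 fold change 1.23 ± 0.18, adjusted p = 0.0044). Abca1 and Abcg1, transporters that export cholesterol, fell (69 and 64.6 CPM in metestrus, against 325 and 403 CPM in estrus for Abca1, and 15.7 and 16.5 CPM in metestrus, against 58.1 and 68.2 CPM in estrus for Abcg1; log2 fold changes -2.45 ± 0.32 and -1.97 ± 0.16). Of 42 endoplasmic reticulum genes 20 rose (11, 15, 9 and 12 without 1 library) and 2 fell. By role there were 9 of 11 chaperones and cochaperones among the risers (5, 7, 4 and 5 without 1 library) but 1 of 12 sensors, factors and degradation genes (0, 1, 0 and 0 without 1 library, 3 without diestrus library 1 or 2). Fkbp14, a proline isomerase that acts on collagen and has the smallest p of the step, had 92.2 and 82.2 CPM in metestrus, against 5.55 and 6.19 CPM in estrus (log2 fold change 3.89 ± 0.13, adjusted p = 0.000277). Hsp90b1, the chaperone GRP94, had 1029.6 and 1056 CPM in metestrus, against 448 and 574 CPM in estrus (log2 fold change 1.03 ± 0.15, adjusted p = 0.0041). Sqle, which makes squalene epoxide, also rose (log2 fold change 2.05 ± 0.35, adjusted p = 0.00687). It had 103 and 108 CPM in proestrus, 21.5 and 9.91 CPM in estrus, 55.3 and 75 CPM in metestrus and 24 and 28.2 CPM in diestrus.

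Collagen genes gained the most counts. Col3a1, Col6a2, Col1a1, Col6a1 and Col6a3 had 5 of the 8 largest gains in CPM among the genes that rose, with the collagen chaperone Serpinh1 and the heat shock genes Hspa8 and Hsp90ab1 as the other 3. Of 41 collagen chains tested 16 rose and 1 fell (0, 0, 0 and 0 without 1 library, 3 without diestrus library 1 or 2). Col6a3, a chain of the beaded filaments around cells, had 2041 and 1903 CPM in metestrus, against 227 and 158 CPM in estrus (log2 fold change 3.35 ± 0.29, adjusted p = 0.00147). Col6a2 had 4429 and 3749 CPM in metestrus, against 1054 and 686 CPM in estrus (log2 fold change 2.23 ± 0.23, adjusted p = 0.00199). Col5a1, which sets fibril width, had 1083 and 788 CPM in metestrus, against 235 and 126 CPM in estrus (log2 fold change 2.37 ± 0.31, adjusted p = 0.00328). Col1a1, the main chain of fibrillar collagen, had 5482 and 3726 CPM in metestrus, against 2036 and 1080.0 CPM in estrus (log2 fold change 1.56 ± 0.33, adjusted p = 0.0138), lost without metestrus library 1 (0.0709) or estrus library 2 (0.0507). Col3a1 had 8164 and 5178 CPM in metestrus, against 4179 and 2494 CPM in estrus (log2 fold change 1.00 ± 0.32, adjusted p = 0.0487). Its call was lost without metestrus library 1 (0.225) or 2 (0.0613) or estrus library 1 (0.0531) or 2 (0.201) or proestrus library 1 (0.0669) or 2 (0.0644). Of 8 basement membrane chains 1 rose (0, 0, 3 and 0 without 1 library, 0 without proestrus library 1 or 2). Without 1 library fewer chains rose (9, 12, 15 and 9 without 1 library).

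Many enzymes and chaperones that modify and export collagen rose too. Of 31 tested 16 rose and 2 fell, including 8 of 11 hydroxylases among the risers (4, 5, 4 and 5 without 1 library). Serpinh1, the chaperone of procollagen, had 2504 and 1896 CPM in metestrus, against 413 and 493 CPM in estrus (log2 fold change 2.28 ± 0.19, adjusted p = 0.00128). P3h1 and Crtap, partners in a prolyl hydroxylase complex, had 121 and 97.7 CPM in metestrus, against 27 and 26.1 CPM in estrus for P3h1, and 135 and 137 CPM in metestrus, against 47.5 and 45.8 CPM in estrus for Crtap (log2 fold changes 2.04 ± 0.22 and 1.55 ± 0.17). Of 5 cross-linking enzymes 2 rose, the lysyl oxidase-like Loxl1 and Loxl2, and 1 fell. Loxl1 had 299 and 230.3 CPM in metestrus, against 102 and 116 CPM in estrus (log2 fold change 1.28 ± 0.16, adjusted p = 0.00302). Loxl2 had 208 and 222 CPM in metestrus, against 73.1 and 94.6 CPM in estrus (log2 fold change 1.36 ± 0.40, adjusted p = 0.0368). Its call was lost without metestrus library 1 (0.108) or 2 (0.128) or estrus library 1 (0.173) or 2 (0.10). Both are named to complete this count, after their values were seen. Lox, lysyl oxidase, had 99.4 and 84.2 CPM in metestrus, against 554 and 506 CPM in estrus (log2 fold change -2.53 ± 0.31, adjusted p = 0.00288). Without 1 library fewer enzymes rose (8, 8, 7 and 8 without 1 library). Among 17 elastin and microfibril genes 9 rose (3, 5, 4 and 3 without 1 library) and 2 fell (2, 1, 1 and 2 without 1 library, 3 without diestrus library 1 or 2). Eln, elastin, had 263 and 208 CPM in metestrus, against 41.9 and 36.9 CPM in estrus (log2 fold change 2.58 ± 0.31, adjusted p = 0.00288). Fbn1, fibrillin 1, had 231 and 209 CPM in metestrus, against 77.4 and 47.4 CPM in estrus (log2 fold change 1.82 ± 0.23, adjusted p = 0.00323). Spp1, osteopontin, fell to 8.3 and 5.6 CPM in metestrus, against 379.7 and 459 CPM in estrus (log2 fold change -5.91 ± 0.67, adjusted p = 0.00251). Of 12 genes of hyaluronan synthesis, binding and breakdown 3 rose, 1 fell and 8 did not pass. Has2, a synthase, had 9.87 and 12.9 CPM in metestrus, against 0.15 and 0.103 CPM in estrus (log2 fold change 6.42 ± 0.52, adjusted p = 0.00121), and Has1, another, had 3.84 and 2.95 CPM in metestrus, against 0.15 and 0.103 CPM in estrus (log2 fold change 4.68 ± 0.71, adjusted p = 0.00493). Hapln1, which links hyaluronan to proteoglycans, had 4.24 and 5.99 CPM in metestrus, against 0.65 and 0.258 CPM in estrus (log2 fold change 3.47 ± 1.01, adjusted p = 0.0363). It was also named after its value was seen, and was lost without metestrus library 1 (0.0879) or 2 (0.124) or estrus library 1 (0.11) or 2 (0.168) or proestrus library 1 (0.0586) or 2 (0.0584) and in limma-voom (0.0744). Cemip, which takes part in hyaluronan breakdown, had 6.52 and 3.76 CPM in metestrus, against 50.2 and 51.6 CPM in estrus (log2 fold change -3.31 ± 0.46, adjusted p = 0.00388).

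Metalloproteinases fell where they changed. Of 15 matrix metalloproteinases tested none rose and 6 fell (4, 3, 6 and 5 without 1 library). Mmp11, stromelysin 3, had 36.7 and 23.9 CPM in metestrus, against 1143 and 1377 CPM in estrus (log2 fold change -5.38 ± 0.30, adjusted p = 0.000806), and its proestrus and diestrus libraries held 46.7 and 49.3 CPM and 38 and 53.8 CPM, so estrus stood alone. Mmp9, a gelatinase, had 10.1 and 12.2 CPM in metestrus, against 68.4 and 65.7 CPM in estrus (log2 fold change -2.58 ± 0.23, adjusted p = 0.00151). Mmp14, a membrane-bound collagenase, had 536 and 494 CPM in metestrus, against 1192 and 1300.0 CPM in estrus (log2 fold change -1.27 ± 0.21, adjusted p = 0.00588). The call of Mmp14 ended without metestrus library 2 (0.0609). Adamdec1, a protease of macrophages, had 0.357 and 0.513 CPM in metestrus, against 26.4 and 20.8 CPM in estrus (log2 fold change -5.74 ± 0.33, adjusted p = 0.000806). Of 16 genes of the ADAMTS role 4 rose (2, 2, 3 and 2 without 1 library) and 2 fell (2, 2, 2 and 2 without 1 library, 3 without diestrus library 1 or 2). Adamts1, which cleaves versican and is a known progesterone target in ovary, had 259 and 305 CPM in metestrus, against 99.8 and 70.2 CPM in estrus (log2 fold change 1.73 ± 0.28, adjusted p = 0.00614). Of 4 tissue inhibitors of metalloproteinases 1 fell. The plot of fold changes by role sets these beside the hedgehog and collagen genes.

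**Figure D4:**
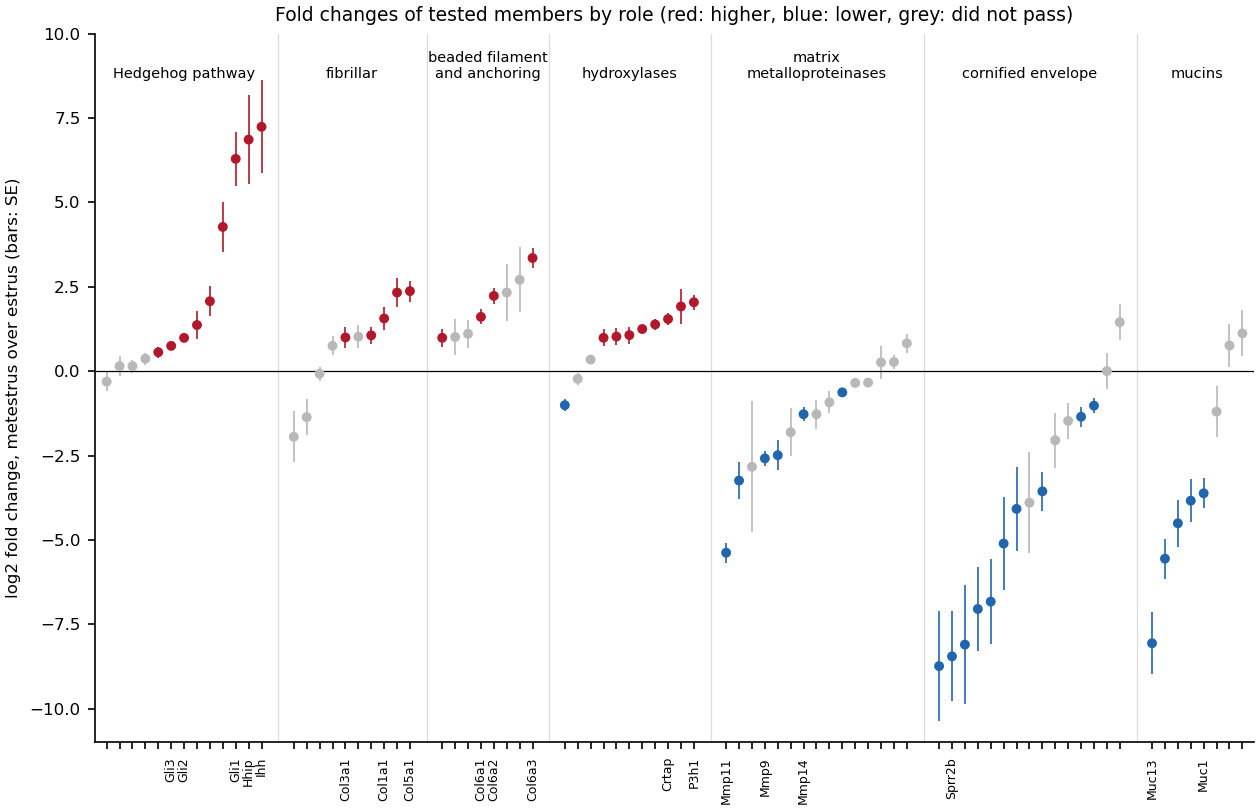
Log2 fold change of metestrus over estrus (y axis) with SE bars for every tested member of 7 roles, each gene a point along the x axis and the genes described in the text named under it. Hedgehog genes, collagen chains and hydroxylases lie mostly above 0, and metalloproteinases, cornified envelope genes and mucins mostly below, with 9 of 13 hedgehog genes higher and 6 of 15 metalloproteinases lower.

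Most genes of simple epithelium were lower in metestrus. Of 36 simple epithelium genes 1 rose and 22 fell (9, 7, 9 and 17 without 1 library), with 16 of 19 adhesion and keratin genes among the falls (7, 6, 8 and 12 without 1 library). Prom1, a protein of apical membrane protrusions, had 86.5 and 99.5 CPM in metestrus, against 772 and 625 CPM in estrus (log2 fold change -2.91 ± 0.23, adjusted p = 0.00114). Epcam, the epithelial adhesion molecule, had 165 and 169 CPM in metestrus, against 484 and 460.1 CPM in estrus (log2 fold change -1.50 ± 0.19, adjusted p = 0.00309). Cldn4, a tight junction claudin, had 12.8 and 16.6 CPM in metestrus, against 174 and 99.1 CPM in estrus (log2 fold change -3.22 ± 0.41, adjusted p = 0.00322). Elf3, an epithelial transcription factor, had 139 and 94.8 CPM in metestrus, against 622 and 592 CPM in estrus (log2 fold change -2.38 ± 0.21, adjusted p = 0.00151). Foxa2, which marks and forms the uterine glands in mice, was the member that rose (15.5 and 16.6 CPM in metestrus, against 8.15 and 5.37 CPM in estrus; log2 fold change 1.24 ± 0.27, adjusted p = 0.014), a call lost without metestrus library 1 (0.0568) or 2 (0.0704) or estrus library 2 (0.0673). Among 15 cornified envelope genes none rose and 10 fell (1, 1, 5 and 9 without 1 library), for example Sprr2b (4.46 and 1.37 CPM in metestrus, against 1678 and 358 CPM in estrus; log2 fold change -8.45 ± 1.33, adjusted p = 0.00547), lost without metestrus library 2 (0.0521). The Sprr2 genes are near-identical copies between which counts may be split, so single members are uncertain. Of 12 keratins and basal genes of stratified epithelium 2 rose (1, 1, 1 and 0 without 1 library, 3 without diestrus library 1 or 2) and 3 fell, with a median log2 fold change of 0.02. The risers were Krt4 and Krt13, keratins of the layers above the basal one. Krt4 had 0.759 and 0.984 CPM in metestrus, against 0.050 and 0 CPM in estrus (log2 fold change 4.81 ± 0.94, adjusted p = 0.0103). Its call was lost without metestrus library 2 (0.0595) or estrus library 2 (0.0589), and its log2 fold change became 7.22 without estrus library 1. Krt13 had 2.05 and 1.58 CPM in metestrus, against 0.10 and 0.103 CPM in estrus (log2 fold change 4.08 ± 0.79, adjusted p = 0.0101). It was lost without metestrus library 1 (0.0512) or estrus library 1 (0.0718) or 2 (0.0619). The falls include Serpinb5 (0.536 and 0.599 CPM in metestrus, against 11.7 and 10.8 CPM in estrus; log2 fold change -4.29 ± 0.25, adjusted p = 0.000821), which encodes maspin.

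Secreted defence proteins and mucins fell more often than they rose, and many did not pass. Of 20 defence proteins 2 rose and 10 fell (4, 4, 6 and 8 without 1 library), and of 8 mucins none rose and 5 fell. Muc1, the cell surface mucin of the lumen, had 60.4 and 52.2 CPM in metestrus, against 604 and 777 CPM in estrus (log2 fold change -3.62 ± 0.44, adjusted p = 0.00294). Muc13 had 0.0893 and 0.0856 CPM in metestrus, against 32.6 and 17.2 CPM in estrus (log2 fold change -8.06 ± 0.92, adjusted p = 0.00249). Dmbt1, a scavenger glycoprotein of mucosa, had 0.0446 and 0.428 CPM in metestrus, against 72.4 and 62.5 CPM in estrus (log2 fold change -8.10 ± 0.65, adjusted p = 0.0012). Bpifb5, of the lipid-binding BPI fold family, rose instead (110.0 and 135 CPM in metestrus, against 2.15 and 1.55 CPM in estrus; log2 fold change 6.04 ± 0.25, adjusted p = 0.000483), as did Bpifb1, with 1.7 and 1.84 CPM in metestrus, against 0 and 0.0516 CPM in estrus (log2 fold change 5.82 ± 0.76, adjusted p = 0.00458). Cxcl15, the chemokine lungkine made by mouse uterine glands, had 36.9 and 43.5 CPM in metestrus, against 1.3 and 1.08 CPM in estrus (log2 fold change 5.07 ± 1.20, adjusted p = 0.0188), lost without metestrus library 1 (0.061) or 2 (0.0718) or estrus library 1 (0.106) or 2 (0.104).

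Genes for transport of water, ions and iron fell more often than they rose. Of 23 water and ion genes 1 rose and 11 fell (1, 1, 4 and 5 without 1 library). Aqp4, a water channel, had 0.179 and 0.128 CPM in metestrus, against 89.5 and 36.9 CPM in estrus (log2 fold change -8.63 ± 1.66, adjusted p = 0.00991), lost without metestrus library 1 (0.0719) or 2 (0.0808) or estrus library 1 (0.0502) and in limma-voom (0.0508). Slc26a4, the anion exchanger pendrin, had 0.625 and 0.299 CPM in metestrus, against 218 and 83.6 CPM in estrus (log2 fold change -8.34 ± 1.42, adjusted p = 0.00684). Car2, a carbonic anhydrase, had 138 and 145 CPM in metestrus, against 995 and 963 CPM in estrus (log2 fold change -2.79 ± 0.51, adjusted p = 0.00842). Slc26a4 was lost without metestrus library 1 (0.0532) or 2 (0.0631), and Car2 without metestrus library 1 (0.0616) or 2 (0.0648). Of 15 iron genes 1 rose and 10 fell (7, 4, 6 and 8 without 1 library). Slc40a1, the iron exporter ferroportin, had 82.8 and 99.6 CPM in metestrus, against 639 and 632 CPM in estrus (log2 fold change -2.80 ± 0.17, adjusted p = 0.000821). Cp, the ferroxidase ceruloplasmin, had 21.1 and 21.2 CPM in metestrus, against 372 and 275 CPM in estrus (log2 fold change -3.94 ± 0.43, adjusted p = 0.00221). Trf, transferrin, had 59.1 and 51.4 CPM in metestrus, against 176 and 269 CPM in estrus (log2 fold change -2.01 ± 0.34, adjusted p = 0.00675), lost without metestrus library 2 (0.0603). Cp and Trf are also made by liver, and the part of the liver transcripts in them was not tested.

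Interferon-induced genes fell nearly without exception. Of 28 tested 26 fell and none rose, with a median log2 fold change of -3.06, and the count stayed between 26 and 27 when each library of the series was left out in turn. Ifit2, which restrains translation of viral RNA, had 7.32 and 6.54 CPM in metestrus, against 67.1 and 76.2 CPM in estrus (log2 fold change -3.37 ± 0.18, adjusted p = 0.000739). Ifi47, an interferon-inducible GTPase, had 12.1 and 11.4 CPM in metestrus, against 90.7 and 74.6 CPM in estrus (log2 fold change -2.82 ± 0.20, adjusted p = 0.000882). Oas2, which makes the activator of RNase L, had 13.7 and 9.45 CPM in metestrus, against 159.8 and 114 CPM in estrus (log2 fold change -3.56 ± 0.33, adjusted p = 0.00163). Mx1, an antiviral dynamin, had 2.68 and 2.57 CPM in metestrus, against 29.4 and 19.8 CPM in estrus (log2 fold change -3.23 ± 0.26, adjusted p = 0.0012). Oas1a had 12.2 and 10.2 CPM in metestrus, against 106 and 71.4 CPM in estrus (log2 fold change -2.98 ± 0.28, adjusted p = 0.00168). In proestrus Oas1a was in the range of estrus, with 117 and 87.3 CPM, whereas Ifit2 had 18.9 and 15 CPM.

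Promoters of these genes are printed because nearly all of the list fell and a motif is known for it. Interferon-stimulated response elements carry the pattern TTTC, any 2 bases and TTTC again, which was searched on both strands in the 250 bases before the start. Of the 26 genes that fell 20 had a promoter in the RefSeq table, and 10 of their 24 promoters (41.7%) held the pattern, beside 2.98% of all 32851 promoters. The windows of Oas1a (chr5:120907526-120907775, minus strand) and Gbp3 (a guanylate-binding protein, chr3:142559794-142560043, plus strand; GRCm38.p6) are given 5′ to 3′ on the strand of the gene, with matches on either strand in capitals; overlapping matches run together:
Oas1a: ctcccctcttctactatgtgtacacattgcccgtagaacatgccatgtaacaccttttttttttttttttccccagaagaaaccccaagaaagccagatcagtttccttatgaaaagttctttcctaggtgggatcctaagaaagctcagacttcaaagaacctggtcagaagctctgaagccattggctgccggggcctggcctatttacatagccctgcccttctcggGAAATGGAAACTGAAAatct
Gbp3: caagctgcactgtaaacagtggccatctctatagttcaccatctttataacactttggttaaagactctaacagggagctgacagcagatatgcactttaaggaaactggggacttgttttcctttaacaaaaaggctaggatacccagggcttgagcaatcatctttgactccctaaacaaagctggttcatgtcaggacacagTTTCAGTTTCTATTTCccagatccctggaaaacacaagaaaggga
Gbp3, named for its promoter after its value was seen, had 17.2 and 13.8 CPM in metestrus, against 151 and 90.8 CPM in estrus (log2 fold change -2.97 ± 0.33, adjusted p = 0.0023). The other 5 lists were searched in the same way. Among genes that rose, the MYC and MAX site CACGTG was in 2 of 32 promoters of ribosome biogenesis genes (6.25%, beside 6.02% of all promoters). The GLI site TGGGTGGTC was in 0 of 7 promoters of hedgehog genes (0.225% of all), and the SREBP site TCACNCCAC in 1 of 13 promoters of the cholesterol list (7.69%, beside 1.05%). Among genes that fell, TCACGTGA, the site bound by TFEB, was in 2 of 25 promoters of lysosomal genes (8.0%, beside 0.785%). The palindromic estrogen response element was in 0 of 11 promoters of the estrogen list (0.0639% of all). TCACGTGA contains CACGTG.

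Genes of antigen presentation on MHC class I fell too. All 14 tested class I genes fell, with a median log2 fold change of -1.29. B2m, the invariant light chain, had 476 and 541 CPM in metestrus, against 1666 and 1419 CPM in estrus (log2 fold change -1.60 ± 0.22, adjusted p = 0.0039). Tapbp, which loads peptides, had 103 and 93.8 CPM in metestrus, against 276 and 228 CPM in estrus (log2 fold change -1.36 ± 0.17, adjusted p = 0.00317). The H2 class I genes resemble each other closely, and ICR mice are outbred, so reads of single H2 genes may be split or lost. Without 1 library fewer class I genes fell (7, 6, 8 and 11 without 1 library). Of 16 dendritic cell and class II genes 1 rose and 4 fell (0, 0, 3 and 1 without 1 library).

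Complement genes fell in 17 of 23 cases and 1 rose. Cfb, factor B of the alternative pathway, had 1.03 and 0.898 CPM in metestrus, against 60.5 and 59.7 CPM in estrus (log2 fold change -5.96 ± 0.61, adjusted p = 0.00193). Cd55, a membrane-bound inhibitor, had 58.9 and 50.2 CPM in metestrus, against 415 and 305 CPM in estrus (log2 fold change -2.72 ± 0.38, adjusted p = 0.00393). Without 1 library fewer complement genes fell (11, 10, 10 and 15 without 1 library).

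Macrophage markers fell in 18 of 23 cases and none rose. Adgre1, which encodes the F4/80 antigen, had 35.3 and 38.7 CPM in metestrus, against 120.1 and 111 CPM in estrus (log2 fold change -1.65 ± 0.19, adjusted p = 0.00248). Gpnmb, a glycoprotein of lipid-loaded and phagocytic macrophages, had 9.02 and 10.6 CPM in metestrus, against 111 and 157 CPM in estrus (log2 fold change -3.77 ± 0.36, adjusted p = 0.00174). Cd14, the co-receptor for bacterial lipopolysaccharide, had 49.5 and 46 CPM in metestrus, against 774 and 580.3 CPM in estrus (log2 fold change -3.83 ± 0.50, adjusted p = 0.00324). Of 33 lysosomal genes 26 fell and none rose. Npc2, which moves cholesterol out of lysosomes, had 133 and 132 CPM in metestrus, against 430.4 and 451 CPM in estrus (log2 fold change -1.73 ± 0.12, adjusted p = 0.000863). Ctsl, the protease cathepsin L, had 223 and 214 CPM in metestrus, against 3775 and 2558 CPM in estrus (log2 fold change -3.86 ± 0.45, adjusted p = 0.00257), one of the 8 largest losses in CPM.

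In the other leukocyte lists a minority of genes passed, but those of neutrophils and of T and NK cells leaned lower. Their median log2 fold changes were -2.44 and -0.97. Eosinophil and mast cell genes had a median of -0.06, and B and plasma cell genes 0.10. Both metestrus libraries lay below both of estrus in 10 of 12 neutrophil and 14 of 19 T and NK cell genes. The share over all tested genes was 40.2%. Of 12 neutrophil markers 4 fell (1, 2, 1 and 4 without 1 library, 7 without diestrus library 1 or 2), but Ltf and Mmp9 among them are also made by uterine epithelium or macrophages. S100a9, a most abundant neutrophil protein, did not pass (0.893 and 0.214 CPM in metestrus, against 5.7 and 0.981 CPM in estrus; adjusted p = 0.222). Of 19 T and NK cell markers 3 fell (0, 0, 0 and 1 without 1 library, 7 without diestrus library 1 or 2). Nkg7, a granule protein, fell (2.59 and 4.23 CPM in metestrus, against 9.75 and 6.66 CPM in estrus; log2 fold change -1.26 ± 0.36). Its call was lost without metestrus library 1 (0.183) or 2 (0.0694) or estrus library 1 (0.182) or 2 (0.0608) or proestrus library 1 (0.0629) or 2 (0.0621). Of 10 B and plasma cell markers 1 rose and 2 fell. Ighm, the heavy chain of IgM, fell (22.5 and 24.1 CPM in metestrus, against 97.2 and 84.6 CPM in estrus; log2 fold change -1.96 ± 0.24, adjusted p = 0.00278). Igha, the heavy chain of IgA, had 1269.8 and 1288 CPM in metestrus, against 1087 and 822 CPM in estrus and did not pass (adjusted p = 0.567).

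Chemokines and cytokines fell more often than they rose. Of 44 chemokine ligands and receptors 4 rose (0, 0, 0 and 0 without 1 library) and 21 fell (8, 11, 10 and 18 without 1 library). Cxcl17, a mucosal chemokine, had 16.6 and 11.7 CPM in metestrus, against 377 and 268 CPM in estrus (log2 fold change -4.51 ± 0.37, adjusted p = 0.00127). Cxcr4, the receptor for CXCL12, had 9.78 and 10.2 CPM in metestrus, against 38.7 and 43.4 CPM in estrus (log2 fold change -2.04 ± 0.14, adjusted p = 0.000882). Of 22 cytokine genes 2 rose (0, 0, 2 and 0 without 1 library, 3 without diestrus library 1 or 2) and 10 fell (6, 2, 6 and 9 without 1 library). Il1a, interleukin 1 alpha, fell (0.0893 and 0.128 CPM in metestrus, against 18.1 and 8.78 CPM in estrus; log2 fold change -6.87 ± 0.96, adjusted p = 0.00391). Csf3, the granulocyte colony-stimulating factor, fell too (0.67 and 0.642 CPM in metestrus, against 32.7 and 9.03 CPM in estrus; log2 fold change -4.98 ± 0.77, adjusted p = 0.00507; lost without metestrus library 2 (0.0502)). Ptgs2, the inducible cyclooxygenase, had 8.26 and 6.33 CPM in metestrus, against 219 and 62.9 CPM in estrus (log2 fold change -4.27 ± 0.79, adjusted p = 0.00869). Its estrus libraries lay far apart but both above metestrus, and its call ended without metestrus library 1 (0.0581) or 2 (0.0722).

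Apoptosis genes fell more often than they rose on both sides of the pathway. Of 24 effectors and activators 1 rose and 11 fell (7, 7, 7 and 9 without 1 library), and of 12 inhibitors none rose and 6 fell (2, 2, 3 and 4 without 1 library). Bmf, a BH3-only activator of cell death, had 30.5 and 23.8 CPM in metestrus, against 248 and 228 CPM in estrus (log2 fold change -3.13 ± 0.29, adjusted p = 0.00166). Tnfsf10, the death ligand TRAIL, had 36.6 and 44.4 CPM in metestrus, against 214 and 211 CPM in estrus (log2 fold change -2.39 ± 0.20, adjusted p = 0.00139). Birc3, an inhibitor of cell death, had 20.1 and 18.7 CPM in metestrus, against 92.4 and 67 CPM in estrus (log2 fold change -2.04 ± 0.23, adjusted p = 0.00247).

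Immediate early and clock genes differed between the stages as well. Of 21 AP-1 and immediate early genes 1 rose (0, 1, 0 and 0 without 1 library, 3 without diestrus library 2) and 8 fell (2, 2, 2 and 6 without 1 library). Fos fell (12.2 and 14.5 CPM in metestrus, against 153 and 61 CPM in estrus; log2 fold change -3.00 ± 0.42, adjusted p = 0.00391), and so did Junb (53 and 44.4 CPM in metestrus, against 186 and 113 CPM in estrus; log2 fold change -1.62 ± 0.23, adjusted p = 0.00409). Of 19 clock genes 5 rose (3, 3, 1 and 3 without 1 library) and 8 fell. Dbp and Nr1d1, outputs and repressors driven by the CLOCK and ARNTL factors, fell (9.999 and 7.57 CPM in metestrus, against 46.9 and 39.9 CPM in estrus for Dbp, and 28 and 16.9 CPM in metestrus, against 120.0 and 92.8 CPM in estrus for Nr1d1; log2 fold changes -2.30 ± 0.22 and -2.25 ± 0.31). Clock itself rose (112 and 112 CPM in metestrus, against 61.6 and 58.9 CPM in estrus; log2 fold change 0.89 ± 0.10, adjusted p = 0.00228), and so did Per2 (45 and 58.4 CPM in metestrus, against 10.4 and 16.2 CPM in estrus; log2 fold change 1.96 ± 0.35, adjusted p = 0.00765), a call lost without estrus library 1 (0.0513). The labels give no hour of collection, so the hour and the stage cannot be told apart for these genes. The plot of shares sets the lists beside the share called over all tested genes.

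**Figure D5:**
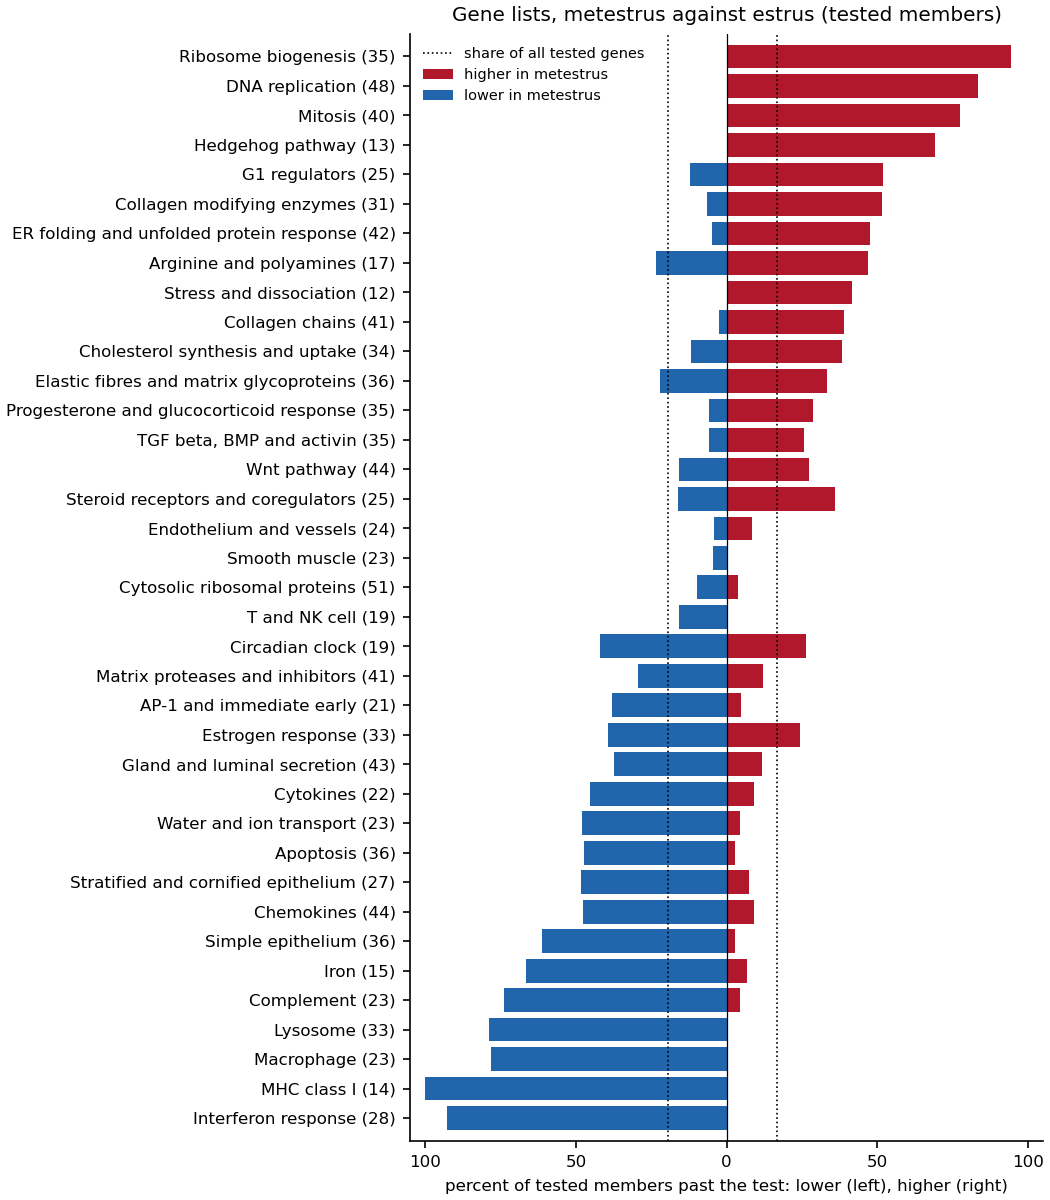
Share of the tested members of 37 gene lists (number in parentheses, y axis) that rose in metestrus (red, to the right) or fell (blue, to the left), in percent (x axis). Dotted lines mark the shares over all tested genes, 16.7% higher and 19.5% lower. The lists shown, out of 66, and their order were chosen by hand. Ribosome biogenesis and DNA replication stand at the top, with 33 of 35 and 40 of 48 members higher. Interferon response is at the bottom, with 26 of 28 lower, and MHC class I next to it, with 14 of 14 lower.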

How the data were processed

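Per the labels' protocols, total RNA of the uterus was made into stranded TruSeq mRNA libraries. Per the submitters' processing notes, the tools STAR, Subread and featureCounts and the builds GRCm38 and mm10 were used, and the deposited table holds the authors' raw count of reads per gene and library, with no normalisation. Gene symbols and coordinates came from GENCODE M21 (GRCm38) for 52058 of 52308 identifiers, and the other 250 held at most 0.0107% of a library's counts. Genes with low counts were removed with filterByExpr, which left 18114 tested and 34194 not. The edgeR quasi-likelihood test (edgeR 4.0.16, R 4.3.3) was fitted to all 8 libraries with 1 coefficient per stage and TMM factors, on 4 residual degrees of freedom, and the SE is the log2 fold change divided by the root of F. Tests were adjusted by the Benjamini-Hochberg method over all tested genes, and the procedure was tested on simulated counts. Most changes of 2-fold were missed there, but far fewer genes were changed than were called here, so that share does not carry over. A gene that did not pass may still have changed. A lower bound of a fold sets a stage with no count to 3 counts over its 2 libraries, which covers counting error only.

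The genes named are the 12 largest rises and falls with at least 5 CPM in the higher stage, no overlap between stages and no predicted or pseudogene symbol, the 8 largest gains and losses of mean CPM, and from each list all members where at most 12 were tested, otherwise up to 6 of smallest p in each direction and members whose failure to pass is given. The FAM3 and steroid receptor genes were named as well. A few genes that these rules give are not reported here. Members and lists were chosen with earlier results of these data known, and the liver, kidney, and pancreas and gut lists after these values were seen. Kidney had 1 of 2 tested members lower, and pancreas and gut 1 of 5. Alternatives were DESeq2 1.42.0, limma-voom (limma 3.58.1), other size factors, filters and minimum fold, other sets of libraries and a replicate block. The deviations of same-numbered libraries from their stage means correlated between -0.0926 (estrus and metestrus) and 0.145 (proestrus and diestrus) over 6 pairs of stages, not over 0.1 in every pair, so the numbers were not used as pairs. In a fit without 1 library of a stage, the lone library left is assumed to vary like the other stages.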

Additional observations from a re-analysis of the deposited data

How the results depend on the processing

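The counts of 3032 higher and 3531 lower genes became 277 and 740 when the test required more than a 2-fold change. Leaving out 1 library gave between 988 and 4047 higher and between 1114 and 4212 lower genes, with the lowest counts without estrus library 1 (higher) and metestrus library 2 (lower). The other settings stayed within 1.5 times: 3252 and 3380 with DESeq2, 3005 and 3589 with limma-voom, 3152 and 3439 with DESeq2 size factors, 2916 and 3427 with no filter, 2982 and 3457 with a CPM filter, and 3950 and 4247 with only the 4 libraries of the step. The fit without both diestrus libraries, chosen after seeing the data, gave 4039 and 4195. Of the 3531 lower genes 3448 lie outside the liver list, which is a subtraction and not a new fit. The replicate block gave 3112 and 3534. It ended the calls of Igkv4-78, Col3a1, Fam3c and Nkg7 (edgeR adjusted p = 0.0550, 0.0559, 0.0622 and 0.0534) and of no other named gene. The sign of 2 receptors that did not pass turned: Nr3c2 lay between -0.37 and 0.31 without 1 library and at 0.0044 without both diestrus libraries, and Gper1 between -0.53 and 0.13 without 1 library (log2 fold changes). With 2 libraries a stage, the calls of many named genes rest on each library, and depth limits genes of few counts in either stage; the cause of these changes was not tested.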

Other observations

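Of the 13 genes of the mitochondrial genome that were tested 4 fell and none rose, with a median log2 fold change of -0.31 (0, 0, 2 and 0 without 1 library, 2 without proestrus library 2, in the order of the report). Of 40 nuclear genes of respiration 7 rose (17.5%) and 2 fell (5%). Fewer rose without any 1 of the 4 libraries of the step, and more rose without diestrus library 1 or 2. Over all tested genes 16.7% rose and 19.5% fell, the shares to set beside each count of this section. Of 14 genes of the Notch pathway 4 rose (1, 1, 1 and 1 without 1 library) and 2 fell (1, 0, 0 and 0 without 1 library, 3 without diestrus library 1 or 2), and of 15 FGF ligands and receptors 6 rose (3, 2, 2 and 3 without 1 library) and 2 fell.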
